A study of Bos taurus with 6 samples.

Results

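The genes described here encode the regulatory factor X (RFX) transcription factors RFX1, RFX2, RFX3, RFX5 and RFX7 and the subunits RFXANK and RFXAP, which join RFX5 in the RFX complex. They were found by gene name in the deposited expression table, and all 7 were among its 21972 genes. RFX2 was picked by its pattern between the breeds in the deposited read counts, so its difference is described with no test. The other 6 were taken as its relatives and partners. RFX proteins share a winged-helix DNA-binding domain that reads the X box, a short imperfect palindrome. RFX1, RFX2 and RFX3 bind it as dimers and are known in mammals as activators of genes for building cilia, and RFX2 is also known for its role in male germ cells of the mouse. RFX5, RFXANK and RFXAP form 1 complex on the X box of histocompatibility class II promoters, where the coactivator CIITA is recruited, and human RFX7 is known to act downstream of p53 on genes that restrain growth.

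Longissimus dorsi muscle came from 3 Japanese black cattle (Wagyu; libraries WC616, WC719, WC921) and 3 Chinese Red Steppes cattle (libraries RC4, RC5, RC6). All animals were males, 28 months old, fed corn and hay, and each gave 1 poly(A) library. The males of a breed had 1 sire and came from 1 farm, so breed, sire and farm cannot be told apart. The paper scored marbling higher in all 3 Wagyu animals, so marbling cannot be told apart from breed either. No treatment or transgene is named for the animals. Values are FPKM, read counts divided by gene length and by the reads counted to genes, which were 15438095 to 16197141 per library. Differences were tested with limma on log2(FPKM + 1) over the 9990 genes whose mean FPKM reached 1, with Benjamini-Hochberg adjusted p-values, and log2 fold changes above 0 are higher in Wagyu. SE is the standard error. With 3 animals a breed, the smallest two-sided p of an exact permutation test is 0.1. Where 3 values are given for a breed, they stand in the order WC616, WC719, WC921 or RC4, RC5, RC6.

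The 7 skeletal muscle markers were high in every library, with a median log2 fold change of -0.04. Of the 7, only ACTA1, skeletal muscle actin, had no overlap between the breeds, at 31588 to 36258 FPKM in Wagyu and 41181 to 45751 FPKM in Chinese Red Steppes. That is 14.3% of the 7, against 20.6% of all genes tested, and the adjusted p of ACTA1 was 0.455 from limma. The part of ACTA1 in the differences below was not tested. RC6 stood apart, since the 13 protein-coding mitochondrial genes took 10.4% of its reads against 4.79% to 5.79% in the other libraries. Of the 7 genes, 5 passed the filter on low values, and RFX3 and RFX7 did not. RFX2 passed it only through the Wagyu libraries. In whole muscle, a lower share of cells with a transcript and less of it per cell cannot be told apart. The 5 fat cell markers summed to 3.94 to 10.2 FPKM in Wagyu and 2.52 to 11.1 FPKM in Chinese Red Steppes. FABP4 had the highest mean of the 5 in both breeds, at 3.75 FPKM in Wagyu and 6.09 FPKM in Chinese Red Steppes. ADIPOQ (0.961 and 0.443), PLIN1 (1.54 and 1.24) and CIDEC (1.33 and 0.409) had higher means in Wagyu, and LEP was near 0. CIDEC, below the filter on low values, had no overlap between the breeds, against 20.6% of all genes tested. The part of these 5 markers in the differences was not tested.

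RFX2 was scarce in Chinese Red Steppes muscle and several-fold more abundant in Wagyu muscle, which is the pattern it was picked for. Its deposited counts were 140, 223 and 248 reads in the Wagyu libraries, and 39, 23 and 28 reads in RC4, RC5 and RC6. As FPKM these were 2.11, 3.28 and 3.67 in the Wagyu libraries and 0.579, 0.349 and 0.433 in the Chinese Red Steppes libraries. The lowest Wagyu library lay above the highest Chinese Red Steppes library, and WC616 was the lowest of the Wagyu libraries. The 95% Poisson interval of the 140 reads in WC616 was 118 to 165 reads, and that of the 39 reads in RC4 was 27.7 to 53.3. Both cover counting error only, and they are no test of the split, since RFX2 was picked for it. The means were 3.02 ± 0.813 FPKM (SD, n = 3) and 0.454 ± 0.117 FPKM (SD, n = 3), a ratio of 6.65. The log2 fold change on log2(FPKM + 1) was 1.45, which understates the change of a gene this low, and on the recovered reads without that offset it was 2.69 by edgeR.

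RFX1, the founding member of the family, did not show that pattern. It was at 1.97, 2.76 and 2.38 FPKM in Wagyu muscle and at 1.88, 2.87 and 3.42 FPKM in RC4, RC5 and RC6. The breeds overlapped, with both the lowest and the highest library in Chinese Red Steppes. The log2 fold change was -0.13 (SE 0.21, 95% interval -0.60 to 0.35, adjusted p = 0.812 from limma), and without RC6 it was 0.01. The ratio of RFX2 to RFX1, both per length, was 1.07, 1.19 and 1.54 in the Wagyu libraries and 0.309, 0.122 and 0.126 in RC4, RC5 and RC6. RFX2 thus ranked above RFX1 in every Wagyu library and below it in every Chinese Red Steppes library, an order that follows in part from how RFX2 was picked.

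RFX3, which in the mouse is needed for nodal and ependymal cilia, was close to undetected in this muscle. It had 3 reads in WC719, 4 reads in WC921 and 0 reads in WC616, RC4, RC5 and RC6. A count of 0 allows up to 3 reads, which for RFX3 is 0.0841 to 0.0882 FPKM depending on the library. The FPKM of 0.0841 in WC719 and 0.113 in WC921 lay at or just above that limit, so no difference between the breeds was detectable at this depth. The remaining relatives were likewise at or near 0. RFX4, known from the brain, had 0 FPKM in all 6 libraries, RFX6, known from pancreatic islets, had 0.0218 FPKM in RC6 only, and RFX8 had 0.0353 FPKM in WC616 and 0.0348 FPKM in RC4.

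**Figure D1:**
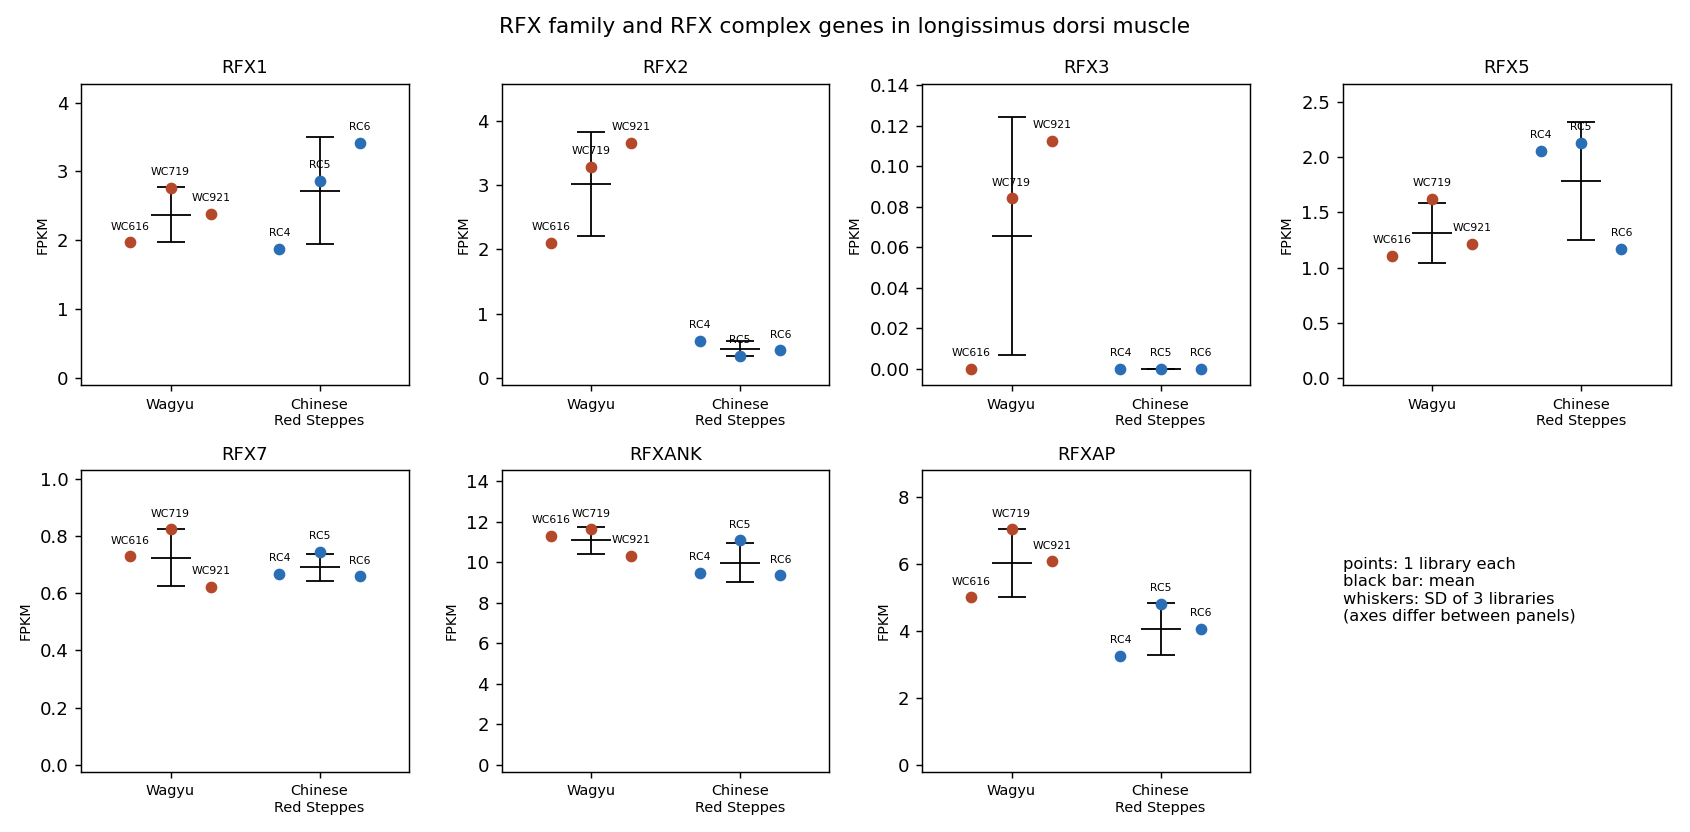
FPKM of the 7 RFX family and RFX complex genes in each library (points), with the mean and SD of the 3 libraries of a breed (black), on axes that differ between panels. RFX2 sits at 2.11 to 3.67 in Wagyu and 0.349 to 0.579 in Chinese Red Steppes, and RFXAP at 5.01 to 7.05 and 3.26 to 4.82, while the other genes detected in both breeds overlap between them.

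The RFX complex was transcribed in every library, with RFXANK as its most abundant subunit. RFXANK, the ankyrin repeat subunit, was at 11.3, 11.6 and 10.3 FPKM in Wagyu muscle and at 9.47, 11.1 and 9.35 FPKM in RC4, RC5 and RC6. The breeds overlapped through RC5, and the log2 fold change was 0.14 (SE 0.14, 95% interval -0.18 to 0.47, adjusted p = 0.671 from limma). The spread was narrow, with a coefficient of variation of 6.21% in Wagyu and 9.70% in Chinese Red Steppes.

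RFXAP, another subunit of the complex, was at 5.01, 7.05 and 6.09 FPKM in Wagyu muscle. The RC4, RC5 and RC6 levels were 3.26, 4.82 and 4.06 FPKM. Every Wagyu library lay above every Chinese Red Steppes library, with WC616 and RC5 nearest to each other. The means were 6.05 ± 1.02 and 4.05 ± 0.780 FPKM (SD, n = 3 each), a ratio of 1.49. By limma the log2 fold change was 0.48 (SE 0.19, unadjusted p = 0.033), and the adjusted p over all genes of 0.318 did not pass. The exact permutation p was 0.1 (two-sided, n = 3 each), the smallest this design allows. Over the 13 alternative settings the log2 fold change stayed between 0.37 and 0.59 and the adjusted p between 0.286 and 0.632.

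RFX5, the subunit with the DNA-binding domain, was the scarcest of the complex, with 34 to 65 reads per library. It was at 1.11, 1.62 and 1.21 FPKM in Wagyu muscle and at 2.06, 2.13 and 1.17 FPKM in RC4, RC5 and RC6. RC4 and RC5 lay above all Wagyu libraries and RC6 fell among them. The log2 fold change was -0.25 (SE 0.20, 95% interval -0.72 to 0.21, adjusted p = 0.59 from limma), and without RC6 it was -0.43 (adjusted p = 0.403). The 95% Poisson interval of the 35 reads in RC6 was 24.4 to 48.7 reads and that of the 64 reads in RC4 was 49.3 to 81.7, for counting error only.

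Ratios between the subunits are given as a description, since they were looked at after the values were seen and no subunit passed limma. The FPKM ratio of RFXAP to RFX5 was 4.34 to 5.01 in the Wagyu libraries and 1.59 to 3.47 in the Chinese Red Steppes libraries. That of RFXANK to RFXAP was 1.65 to 2.25 and 2.30 to 2.90. Neither pair of ranges overlapped, but the gap of the second was small (2.25 in WC616 against 2.30 in RC5). The ratio of RFXANK to RFX5 was 7.16 to 10.2 and 4.61 to 7.99, which overlapped.

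RFX7, with the longest gene model of the 7, was even across the libraries. It was at 0.728, 0.823 and 0.622 FPKM in Wagyu muscle and at 0.668, 0.744 and 0.659 FPKM in RC4, RC5 and RC6, from 73 to 97 reads per library. All Chinese Red Steppes libraries fell inside the Wagyu range. Without the filter on low values its log2 fold change was 0.03 (SE 0.10, 95% interval -0.21 to 0.27, adjusted p = 0.92 from limma), and edgeR on the recovered reads gave 0.03 (adjusted p = 0.959). ANKRA2, an ankyrin repeat protein related to RFXANK that binds RFX7 in human cells, was at 5.44, 5.16 and 3.75 FPKM in Wagyu muscle. The RC4, RC5 and RC6 levels were 6.70, 5.59 and 5.69 FPKM. The breeds did not overlap, as in 20.6% of all genes tested, and WC616 and RC5 lay nearest to each other. The log2 fold change of ANKRA2 was -0.28 (SE 0.17, adjusted p = 0.484 from limma).

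None of the 4 members other than RFX2 that passed the filter was called by limma, where 2 of 9990 genes were (0.02%). Of the 4, 2 had a log2 fold change above 0, against 53.7% of all genes. At an unadjusted p under 0.05 it was 1 of the 4, RFXAP, against 14.5% of all genes, and with no overlap between the breeds also 1 of the 4, again RFXAP, against 20.6% of all genes. With RFX2 left out, edgeR (0.0685% of all genes called) and DESeq2 (1.94% called) called none of the members on the recovered reads. RFX2 was left out of all these member counts because it was picked for its difference. A separation such as that of RFXAP was thus common in this table. How reads were shared between similar genes is unknown, so reads from stretches that RFX1, RFX2 and RFX3 have in common may be misplaced.

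**Figure D2:**
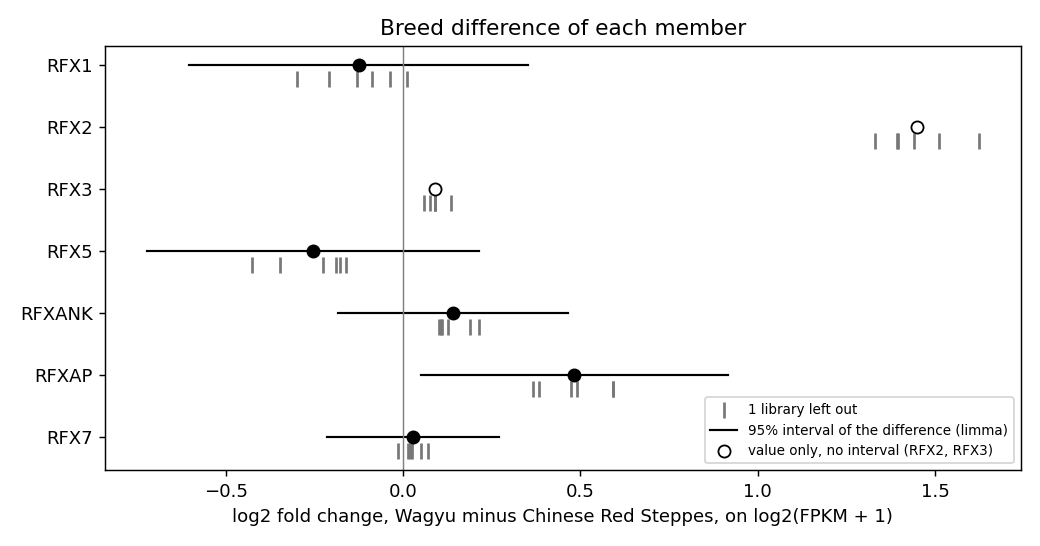
Log2 fold change of each gene, Wagyu minus Chinese Red Steppes on log2(FPKM + 1), with the 95% interval (lines) and the values with 1 library left out (grey ticks). Open circles carry no interval: RFX2 at 1.45 was picked for this difference and RFX3 had at most 4 reads in a library. The interval of RFXAP, 0.05 to 0.92, is not adjusted for the number of genes, and its adjusted p is 0.318.

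By level per length the order was the same at the top in every library, with RFXANK first, RFXAP second and RFX3 last. In the Wagyu libraries RFX2, RFX1, RFX5 and RFX7 followed in that order in all 3. In Chinese Red Steppes, RFX2 came after RFX7, and RFX5 and RFX1 exchanged places, with RFX5 above RFX1 in RC4 and below it in RC5 and RC6. The means of RFX1 and RFX5 in Chinese Red Steppes were 2.72 ± 0.782 and 1.79 ± 0.536 FPKM (SD, n = 3 each). Within RC4, RC5 and RC6 the ratio of RFX1 to RFX5 was 0.913, 1.34 and 2.92. RFXANK was 1.65 to 2.90 times as high as RFXAP over the 6 libraries, and RFXAP 1.19 to 2.55 times as high as RFX1. The latter ratio was 2.54, 2.55 and 2.55 in the Wagyu libraries and 1.74, 1.68 and 1.19 in RC4, RC5 and RC6. It is a description only, as neither RFXAP nor RFX1 passed limma.

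Partners that meet the RFX complex on class II promoters were present. CIITA, the coactivator that decides whether class II genes are transcribed, was at 3.21, 4.28 and 2.66 FPKM in Wagyu muscle and at 12, 5.68 and 3.81 FPKM in RC4, RC5 and RC6. RC4 stood far above the rest and RC6 fell among the Wagyu libraries. The log2 fold change was -0.79 (SE 0.35, adjusted p = 0.358 from limma), and without RC4 it was -0.39. The arginine methyltransferase CARM1 was the most abundant partner, at 161 ± 28.2 FPKM in Wagyu against 121 ± 20.7 (SD, n = 3 each), with a log2 fold change of 0.41 (SE 0.19, adjusted p = 0.364 from limma). KAT2B, an acetyltransferase, was at 30.7 ± 7.53 and 21.2 ± 10.2 FPKM, and the NF-Y subunits NFYC and NFYA, which bind the neighbouring CCAAT box, were at 29.9 ± 4.2 and 32.1 ± 2.48 and at 1.79 ± 0.689 and 2.79 ± 0.90 FPKM (SD, n = 3 each). CREBBP, an acetyltransferase that CIITA recruits, was at 12.2 ± 3.85 and 10.6 ± 1.83 FPKM (SD, n = 3 each). Of the 10 partners, 9 were tested, 0 passed by limma, edgeR or DESeq2 and 0 had an unadjusted p under 0.05. The median log2 fold change of the 9 was 0.04, beside 0.03 over all 9990 genes.

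The class II genes themselves are the known targets of the complex, and none of those tested passed. CD74, the invariant chain, was at 198, 201 and 130 FPKM in Wagyu muscle and at 265, 131 and 243 FPKM in RC4, RC5 and RC6. BOLA-DRA, the alpha chain of the DR molecule, was at 35.5, 31.9 and 24.6 FPKM in Wagyu and at 33.8, 24.3 and 48.9 FPKM in RC4, RC5 and RC6. BOLA-DRB3, its beta chain, was at 25.3 ± 7.77 and 34.9 ± 18.5 FPKM (SD, n = 3 each). WC921 and RC5 were the lowest libraries of their breeds for CD74, BOLA-DRA and BOLA-DRB3, while the order of the other libraries differed between CD74 and the DR genes. Their log2 fold changes were -0.23, -0.17 and -0.35 (adjusted p 0.753, 0.799 and 0.72 from limma), and without RC6 those of BOLA-DRA and BOLA-DRB3 were 0.080 and 0.033. That of CD74 was -0.03 without WC921 and -0.55 without RC5. BOLA-DMA, which with BOLA-DMB helps to load peptides, was at 7.68 ± 0.879 and 9.42 ± 2.52 FPKM (SD, n = 3 each).

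The DQ genes were uneven. BOLA-DQA2 was at 3.09, 3.24 and 1.73 FPKM in Wagyu muscle and at 4.14, 5.41 and 7.78 FPKM in RC4, RC5 and RC6, with no overlap (log2 fold change -0.87, SE 0.26, adjusted p = 0.25 from limma). BOLA-DQA5 was at 2.28, 0.659 and 0.560 FPKM in Wagyu and at 1.53, 4.07 and 5.85 FPKM in RC4, RC5 and RC6, which overlapped (log2 fold change -1.13, SE 0.42, adjusted p = 0.31 from limma). BOLA-DQB was higher on average in Wagyu, at 21.1 ± 6.22 against 14.0 ± 11.2 FPKM (SD, n = 3 each). BOLA-DQA1 was near 0 in 1 animal of each breed, at 0.368 FPKM in WC616 and 0.297 FPKM in RC5, and at 6.07 to 14.5 FPKM in the other 4 libraries. Cattle differ in which DQ genes a haplotype carries and these genes are near copies of each other, so their reads may be split among them.

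Of 13 class II genes listed, 11 matched a row and 9 were tested. None passed limma, edgeR or DESeq2, 2 were lower at an unadjusted p under 0.05 (5.87% of all genes) and 1 of the 9 was lower with no overlap, near the 9.16% of all genes. The median log2 fold change was -0.33, beside 0.03 over all genes, and it ranged from -0.61 to -0.11 over the settings. Of the 9, 8 lay below 0 and 1 above, where 53.7% of all genes lay above 0. Among markers of the cells known to carry class II molecules, the summed FPKM of 11 macrophage and monocyte markers was 15.7 to 31.9 in Wagyu and 10.6 to 28.7 in Chinese Red Steppes. It was highest in WC616 and RC4, and none of the 11 was at 0 in all libraries. The 5 B cell markers summed to 0.396 to 0.717 and 0.202 to 2.05 FPKM, with PAX5 at 0 throughout, and the 4 dendritic cell markers found to 1.01 to 1.33 and 0.226 to 1.91 FPKM. Their part in the class II values was not tested.

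**Figure D3:**
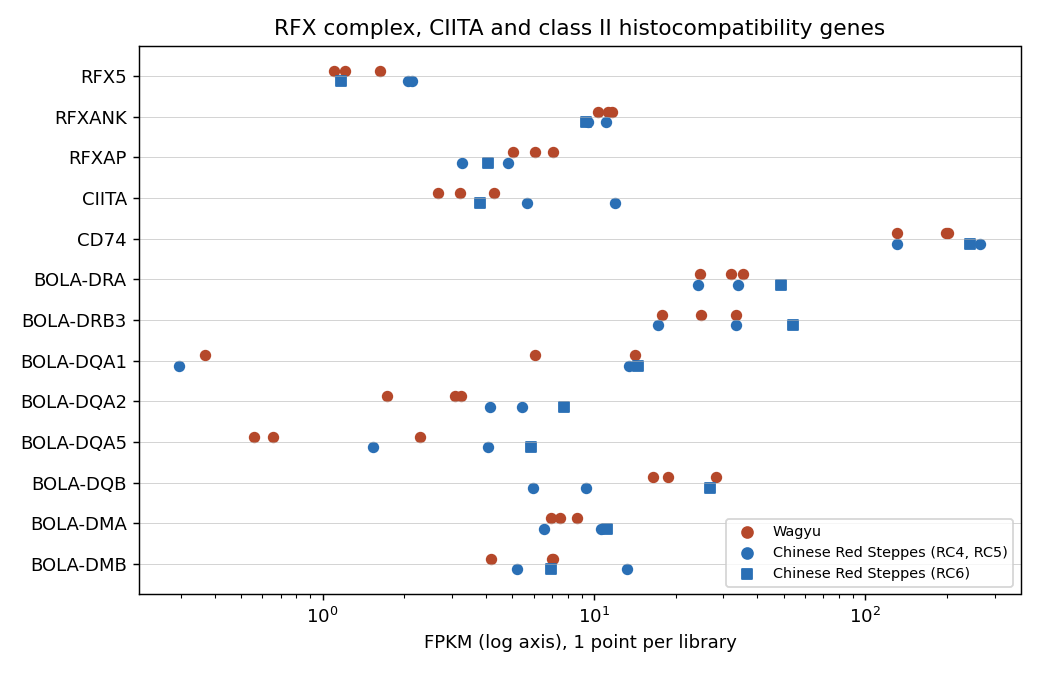
FPKM (log axis) of the RFX complex, CIITA and class II genes, 1 point per library, with Wagyu above and Chinese Red Steppes below each line and RC6 as a square. CD74 spans 130 to 265 FPKM and RFX5 1.11 to 2.13. BOLA-DQA2 is the class II gene with no overlap between the breeds.

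Class I genes, which the RFX complex also helps to drive together with NLRC5, gave no call either. B2M, the light chain of class I molecules, was at 337 ± 46.5 FPKM against 372 ± 92.5 in the Chinese Red Steppes animals, and TAPBP, which aids peptide loading, was at 34.5 ± 1.41 and 35.6 ± 4.26 (SD, n = 3 each). JSP.1, a class I heavy chain, was at 61.6, 21.2 and 3.81 FPKM in Wagyu muscle and at 192, 36.3 and 131 FPKM in RC4, RC5 and RC6. The breeds overlapped, with a log2 fold change of -2.38 (SE 0.94, adjusted p = 0.324 from limma) that was -1.40 without WC921, -3.25 without WC616 and -3.08 without RC5. Its reads may be split among class I copies, as may those of BOLA (67.6 ± 19.3 and 81.4 ± 39.1 FPKM; SD, n = 3 each). Of 8 genes tested, 0 passed by the 3 tools and 1, JSP.1, had an unadjusted p under 0.05, near the 14.5% of all genes. The median log2 fold change was -0.04, beside 0.03 over all genes. The peptide transporter TAP1 was at 6.02 ± 1.41 and 5.52 ± 0.760 FPKM and the immunoproteasome subunit PSMB9 at 5.22 ± 1.22 and 4.09 ± 1.61 (SD, n = 3 each).

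RFX1, RFX2 and RFX3 are known as activators of genes for building cilia. The genes of ciliary transport and the BBSome listed here were chosen by function, and which of them are RFX targets was not tested. Those tested in this muscle were mostly lower in Wagyu on average, but none passed. TTC8, a subunit of the BBSome that moves membrane proteins in and out of cilia, was at 0.992, 1.67 and 0.741 FPKM in Wagyu muscle and at 2.12, 3.16 and 3.02 FPKM in RC4, RC5 and RC6. The breeds did not overlap, and the log2 fold change was -0.83 (SE 0.22, adjusted p = 0.203 from limma). IFT27, a small GTPase of intraflagellar transport, was at 4.55, 4.99 and 4.17 FPKM in Wagyu and at 6.35, 7.17 and 10.2 FPKM in RC4, RC5 and RC6, again with no overlap (log2 fold change -0.65, SE 0.19, adjusted p = 0.247 from limma).

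IFT172, a large subunit of the intraflagellar transport machinery, was at 0.773, 0.652 and 0.959 FPKM in Wagyu and at 1.28, 1.37 and 1.31 FPKM in RC4, RC5 and RC6. MKKS, a chaperonin-like protein of BBSome assembly, was at 1.12, 1.46 and 0.713 FPKM and at 1.61, 1.76 and 2.20 FPKM. Both had no overlap, with log2 fold changes of -0.37 and -0.46 and adjusted p values of 0.335 and 0.336 from limma. The more abundant BBIP1, IFT20 and BBS4 overlapped between the breeds, with log2 fold changes of 0.19, -0.16 and -0.39.

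Of the 34 ciliary genes, 20 passed the filter. Of these, 16 lay below 0 and 4 above, where 53.7% of all genes lay above 0. None passed limma, edgeR or DESeq2, 4 were lower and 0 higher at an unadjusted p under 0.05 (5.87% and 8.64% of all genes), and for 6 of them all Wagyu libraries lay below all those of the other breed (9.16% of all genes). The median log2 fold change was -0.16, beside 0.03 over all genes, and leaving out 1 library moved it between -0.31 and -0.06. The summed FPKM of the 34 genes was 64.0 to 81.5 in Wagyu and 78.2 to 100.8 in Chinese Red Steppes. RC5 and RC6 had the highest sums and RC4 fell inside the Wagyu range. Markers of cells with many motile cilia were nearly silent, with 9 markers summing to 0.126 to 0.301 FPKM and 0.145 to 0.250 FPKM, and MCIDAS, GMNC, DNAH5 and HYDIN at 0 in all libraries.

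Genes known as RFX7 targets in human cells were read beside the even level of RFX7. PNRC1, a nuclear receptor coactivator, was at 94.0, 128 and 188 FPKM in Wagyu muscle and at 110, 220.3 and 314 FPKM in RC4, RC5 and RC6. DDIT4, an inhibitor of mTORC1, was at 109, 89.1 and 166 FPKM and at 96.6, 205.5 and 223 FPKM. For both, RC4 was the lowest Chinese Red Steppes library and fell inside the Wagyu range. REV3L, the catalytic subunit of a translesion DNA polymerase, had the lowest p of the list, at 0.880, 1.07 and 1.68 FPKM against 1.53, 2.27 and 3.41 FPKM, and the breeds overlapped (log2 fold change -0.60, SE 0.25, adjusted p = 0.332 from limma).

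TOB1, an antiproliferative protein, was at 87.7 ± 26.8 and 116 ± 28.8 FPKM, JUNB, an AP-1 subunit, at 36.7 ± 15.7 and 44.2 ± 7.59 FPKM, and MXD4, an antagonist of MYC, at 23.2 ± 4.53 and 17.8 ± 2.86 FPKM (SD, n = 3 each). PIK3IP1, an inhibitor of phosphatidylinositol 3-kinase, was at 2.00 ± 0.632 and 2.64 ± 0.225 FPKM (SD, n = 3 each). Of 14 genes 13 were tested, 0 passed by the 3 tools, 1 was lower at an unadjusted p under 0.05 (5.87% of all genes), and 0 were without overlap (20.6% of all genes). The median log2 fold change was -0.26, beside 0.03 over all genes. Of the 13, 10 lay below 0 and 3 above, where 53.7% of all genes lay above 0.

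**Figure D4:**
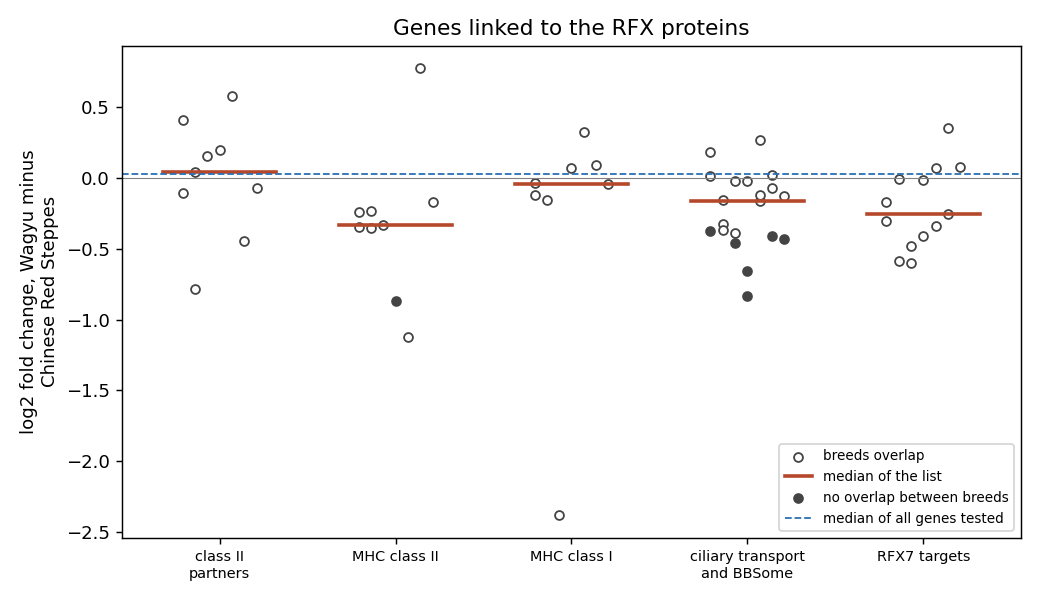
Log2 fold change, Wagyu minus Chinese Red Steppes, of each tested gene in 5 lists of genes linked to the RFX proteins, with filled points where the breeds do not overlap. Red bars are the list medians (0.04, -0.33, -0.04, -0.16 and -0.26 from left to right) and the dashed line is the median of all genes tested, 0.03. None of the points passed limma.

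The genes whose level across the 6 libraries was most like that of RFX2 were NCOA6, ANKFY1, DYRK2, SYNC and IGSF8, with Pearson's r of 0.999, 0.994, 0.992, 0.990 and 0.990 on log2(FPKM + 1). NCOA6, a nuclear receptor coactivator, was at 3.29, 3.63 and 3.69 FPKM in Wagyu muscle and at 2.69, 2.58 and 2.65 FPKM in RC4, RC5 and RC6. SYNC, an intermediate filament protein of muscle, was at 21.9, 24.9 and 29.3 FPKM and at 10.5, 8.65 and 8.12 FPKM. All 5 were lowest in WC616 and highest in WC921 among the Wagyu libraries, as RFX2 was, which follows in part from choosing them by r. The 6 points share the breed split, and 306 of 9989 genes had an r above 0.9, so this is a description only.

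Neighbours of RFX2 on the chromosome, taken by order from a RefSeq table of the assembly ARS-UCD2.0 and chosen after the values were seen, are given as a comparison. Of the 12 nearest protein-coding genes 6 were tested. RANBP3, next to RFX2, was at 32.7, 39.9 and 37.0 FPKM in Wagyu muscle and at 35.8, 30.6 and 30.5 FPKM in RC4, RC5 and RC6. Of the 6, 1 had no overlap, against 20.6% of all genes. It was MLLT1, at 12.5, 14.1 and 13.8 FPKM against 11.4, 11.5 and 10.9 FPKM. The 6 log2 fold changes ranged from -0.16 for ALKBH7 to 0.24 for MLLT1, and their adjusted p values from 0.434 to 0.914 (limma).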

How the data were processed

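Longissimus dorsi muscle of 3 Wagyu and 3 Chinese Red Steppes males was sequenced as paired-end poly(A) libraries. The deposited FPKM table was made by the authors from cleaned reads counted per gene. HISAT2 and the build UMD3.1 stand in the submitters' processing notes but TopHat and Bowtie in the paper's methods, and it could not be settled which made the values. How strand and reads with several matches were treated was not given in the sources used here. Besides, the authors deposited raw read counts of a list of 205 genes, with breed means, fold changes and FDR values of their own that were not used. The title of that list names a comparison of the breeds with limits on fold change and FDR. By that title its genes, RFX2 among them, were already selected for a breed difference. From the counts of this list the reads counted to genes per library were worked out and FPKM was turned back into reads. All 16770 genes above 0 gave whole reads (tolerance 1e-06, relative to the largest value of a gene), equal to the deposited counts for 203 of the listed genes and not for the other 2. That the 3 animals of a breed are separate animals is stated by the study.

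The main test was limma 3.58.1 (eBayes with a trend, in R 4.3.3), run on log2(FPKM + 1), with a threshold of 0.05 on the adjusted p. Alternatives were a pseudocount of 0.1, no filter, a mean FPKM of at least 5, quantile normalization, an equal sum of FPKM, edgeR 4.0.16 (quasi-likelihood) and DESeq2 1.42.0 on the recovered reads, and leaving out each library. Python 3.11.15, scipy 1.17.1, numpy 2.4.6 and pandas 2.3.3 were used for the rest. The members and gene lists were chosen with earlier results of these data known. All members are named, and from each list the 4 tested genes with the smallest p and the 4 with the highest mean FPKM, together with the 5 genes most like RFX2. A listed symbol was matched to the gene name, else to the symbol, 1 row per symbol. Poisson intervals and the 3 reads that a count of 0 allows cover counting error only.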

Additional observations from a re-analysis of the deposited data

How the results depend on the processing

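No paired analysis was possible because the labels give the breeds no shared replicate numbers. The number of genes past the threshold was 2, and it was 1 with a pseudocount of 0.1, 0 with no filter or a mean FPKM of at least 5, 5 at an equal sum of FPKM, 8 by edgeR, 237 by DESeq2 and 0 to 3 with 1 library left out. It was 0 without WC616, WC719, WC921 or RC6 and 1 without RC5. RFX2 was not assessed against the threshold, and none of the other members passed under any setting. The log2 fold change of RFX2 was 2.48 with a pseudocount of 0.1, 2.69 by edgeR and 2.70 by DESeq2, and 1.33 to 1.62 with 1 library left out. That of RFX3 was 3.58 by DESeq2, from 7 reads in all. RFX1 ranged from -0.30 to 0.0096 with 1 library left out, turning without RC6, and RFX7 from -0.013 to 0.071, turning without WC719. The ciliary median was -0.33 at a mean FPKM of at least 5, -0.47 by edgeR, -0.49 by DESeq2 and -0.31 to -0.064 with 1 library left out, and that of the RFX7 targets was -0.28 to -0.11 with 1 library left out. The medians of the class II partners (-0.081 to 0.17) and class I genes (-0.10 to 0.0997) crossed 0. Leaving out 1 library also turned the sign of B2M (-0.33 to 0.041), BOLA (-0.64 to 0.14), BOLA-DRA (-0.41 to 0.080), BOLA-DRB3 (-0.77 to 0.033), CREBBP (-0.011 to 0.42), BBIP1 (-0.085 to 0.36), TAP1 (-0.0089 to 0.27) and TAPBP (-0.088 to 0.058), and TAPBP was 0.018 at an equal sum. The causes were not tested.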
